A study of Canis lupus familiaris with 42 samples.

Results

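The circadian clock genes described here are PER1, PER2, PER3, CRY1, CRY2, NR1D1, NR1D2, DBP, TEF and CLOCK, measured in spontaneous canine sarcomas. They were chosen by name, and each gene was read from the probe set that carries its symbol alone and has the highest mean over all 42 arrays. Of the 10 genes, 8 could be read in this way, out of 15115 genes with such a probe set. NR1D1 and DBP had no probe set annotated with that symbol alone and are not reported. The 8 measured genes have 20 such probe sets in all, and the 12 that were not chosen served as a check.

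RNA came from tumours of dogs (Canis lupus familiaris), with 21 arrays after the first hyperthermia treatment and 21 arrays before it, from the same 21 tumours. Hyperthermia, the heating of the tumour, was given in addition to radiotherapy. The samples taken before it are labelled as having had no treatment, and how much radiation lay between both samples is not in the labels. The series describes 22 tumours, and the 21 with an array of each kind are analysed here. The labels give no hour of sampling, no time after treatment, no sarcoma subtype and no age, strain or sex. Nothing in them ties a tumour to a dog. The tests take the 21 tumours as independent, and the p-values could be too small if tumours shared a dog. No untreated tumour was sampled a second time, so the effect of treatment and the passing of time, including the hour of the day, cannot be told apart.

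The clock is a feedback loop of transcription. CLOCK pairs with BMAL1 (ARNTL) and activates the PER and CRY genes through E-box elements, and the PER and CRY proteins then repress that pair. The REV-ERB receptors, of which NR1D2 is one, repress ARNTL, while the PAR bZIP factors DBP, TEF and HLF carry the rhythm to further genes through D-box elements. Many tissues run such a clock, PER1 is also induced directly by glucocorticoids, and in mouse cells heat can shift the phase of the clock.

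Levels are the deposited log2 values and a change is the log2 level after hyperthermia minus the log2 level before it in the same tumour. All tests of change come from limma with the tumour as a block, and p-values were adjusted by Benjamini-Hochberg over 42924 probe sets. A gene passed the test at an adjusted p under 0.05. The arrays fall into batches by the poly-A spike-in controls, which are added when RNA is labelled. These controls had a median of 7.67 after hyperthermia and 7.20 before it in 9 tumours, called the spiked batch here. The remaining 12 tumours, the unspiked batch, had medians of 3.47 after hyperthermia and 3.55 before it. No tumour had its 2 arrays in different batches. For the sarcoma label, the mean of the mesenchymal markers VIM, COL1A1, COL1A2 and SPARC was read. It ran from 12.7 to 14.1 after hyperthermia and from 12.9 to 14.1 before it. Tumour 15 held the highest levels of the epithelial markers EPCAM and DSP. EPCAM stood there at 7.69 after hyperthermia and 5.87 before it, against medians of 3.01 and 3.13. DSP stood at 8.29 and 8.88, against medians of 3.98 and 4.05. The same tumour had the lowest VIM and SPARC before treatment (13.2 and 12.7).

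None of the 8 clock genes passed the test in either direction, against 7.15% of all genes (4.02% higher and 3.13% lower). The unadjusted p was under 0.05 for 2 of the 8, PER1 and CLOCK, against 21.7% of all genes, and the Wilcoxon signed-rank test also called 0 of the 8. The median change of the 8 genes was -0.02, and their changes ran from -0.28 for PER1 to 0.16 for CLOCK; over all genes the median change was 0.01. The median size of the change, sign left out, was 0.08 for the 8 genes and 0.06 for all genes. In bulk tissue, fewer cells of a type and less RNA per cell cannot be told apart. The plot of levels by tumour shows each pair.

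**Figure D1:**
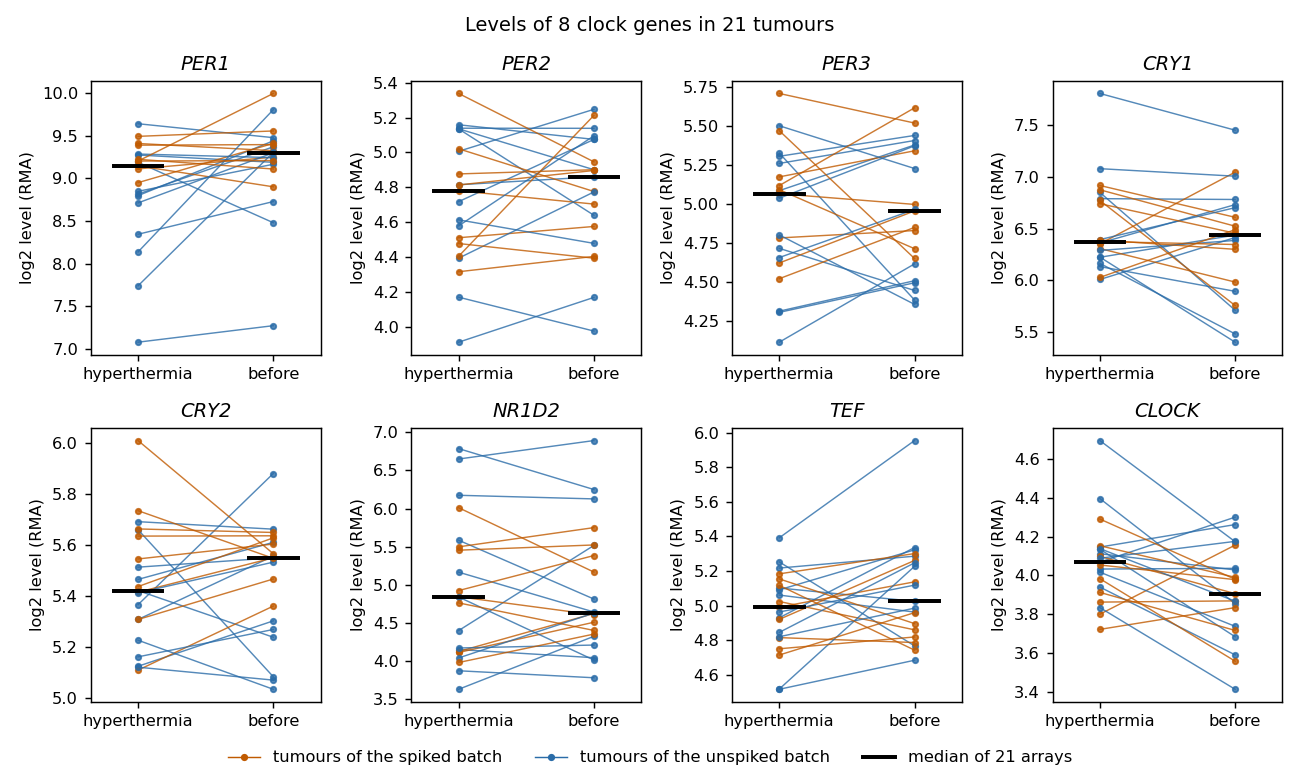
Log2 level (RMA) of each of the 8 clock genes, with arrays after hyperthermia on the left and arrays before it on the right. Each line is 1 of 21 tumours, coloured by spike-in batch, and black bars are medians of 21 arrays. The ranges of both groups overlap for all 8 genes, and the vertical scale differs between panels.

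PER1, PER2 and PER3 encode the period proteins, repressors of the CLOCK and BMAL1 pair. PER1 ranged from 7.08 through a median of 9.15 to 9.64 after hyperthermia, and from 7.27 through 9.30 to 9.99 before it. The ranges overlapped, and the lowest level in both groups came from tumour 4. PER1 was lower after hyperthermia in 14 of 21 tumours, with a mean change of -0.28 ± 0.11 (SE, n = 21; 95% interval -0.52 to -0.05; fold 0.822). This did not pass (limma p = 0.0208, adjusted p = 0.157). The mean and the median differed, since the median change was -0.14 and the lowest changes lay far below it, at -1.67 in tumour 13 and -1.56 in tumour 17.

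In tumour 13 PER1 stood at 8.14 after hyperthermia against 9.80 before it, and in tumour 17 at 7.74 against 9.30. Tumour 13 also stood apart in other measures. The 3′ minus 5′ contrast of its control transcripts, a measure of RNA quality, was 1.06 after hyperthermia against 1.64 before it, the lowest change of the 21 tumours (-0.58), and its poly-A controls stood at 3.95 against 5.28. It held the lowest change of 5 of the 19 measured markers of cell types: FABP4 (-3.03) and ADIPOQ (-0.85) of adipocytes, EPCAM (-1.89) and DSP (-0.76) of epithelium, and VWF (-1.46) of endothelium. The contrast of tumour 17 changed by only 0.16, but it was high on both arrays. It stood at 1.60 after hyperthermia, the highest of the 21 tumours, and at 1.44 before it, where only tumour 13 was higher. Without tumours 11 and 13, whose contrast changed by more than 0.5 in size, the mean change of PER1 was -0.22 (limma adjusted p = 0.235). That setting keeps tumour 17. At the other end, PER1 in tumour 6 stood at 9.19 after hyperthermia against 8.48 before it, a change of 0.71. PER1 changed by at least 0.5 in size in 7 tumours, downward in 6 of them and upward in 1. Leaving out 1 tumour at a time gave mean changes between -0.33 and -0.21, all without passing.

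PER2 ranged from 3.91 through 4.78 to 5.34 after hyperthermia and from 3.97 through 4.86 to 5.25 before it. These ranges were almost the same. Its change was -0.04 ± 0.07 (SE, n = 21; 95% interval -0.18 to 0.09), with 10 tumours higher and 11 lower (limma adjusted p = 0.792). The lowest PER2 change was -0.81 in tumour 18 and the highest was 0.50 in tumour 6.

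PER3 ranged from 4.11 through 5.07 to 5.71 after hyperthermia and from 4.36 through 4.96 to 5.62 before it. The ranges overlapped over most of their width. Its mean change was -0.004 ± 0.08 (SE, n = 21; 95% interval -0.18 to 0.17; limma adjusted p = 0.987). Its changes ran from -0.50 in tumour 4 to 0.94 in tumour 6, with 8 tumours higher and 13 lower.

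CRY1 and CRY2 encode the cryptochromes, which bind the period proteins and repress the same pair. CRY1 ranged from 6.01 through 6.38 to 7.80 after hyperthermia and from 5.40 through 6.44 to 7.45 before it. The groups overlapped, and tumour 17 held the highest level in both. CRY1 was higher in 14 tumours and lower in 7, with a mean change of 0.15 ± 0.10 (SE, n = 21; 95% interval -0.05 to 0.36; limma adjusted p = 0.448). Single tumours moved far more than the mean: tumour 1 changed by 1.14, tumour 10 by 1.01 and tumour 2 by 0.82, while tumour 9 changed by -0.69.

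CRY2 ranged from 5.11 through 5.42 to 6.01 after hyperthermia and from 5.03 through 5.55 to 5.88 before it. The ranges overlapped. Its change was -0.02 ± 0.05 (SE, n = 21; 95% interval -0.13 to 0.09; limma adjusted p = 0.882), and 8 tumours were higher and 13 lower. CRY2 had the smallest spread of change of the 8 genes, with an SD of 0.24.

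NR1D2 encodes REV-ERB beta, a nuclear receptor that represses ARNTL. It ranged from 3.63 through 4.84 to 6.79 after hyperthermia and from 3.78 through 4.63 to 6.89 before it, where the highest tumour was 8.67-fold above the lowest. Tumours 1, 2 and 4 lay above 6 in both groups. The mean change was -0.02 ± 0.11 (SE, n = 21; 95% interval -0.24 to 0.21; limma adjusted p = 0.956), with 10 tumours higher and 11 lower. Single tumours moved in both directions, from -1.12 in tumour 7 to 0.85 in tumour 19, and 8 of 21 changed by at least 0.5 in size, 5 upward and 3 downward.

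TEF, a PAR bZIP factor that binds D-box elements, ranged from 4.52 through 4.99 to 5.39 after hyperthermia and from 4.68 through 5.02 to 5.95 before it. The ranges overlapped, with tumour 4 highest and tumour 17 lowest in both. TEF was lower in 14 of 21 tumours, with a mean change of -0.11 ± 0.06 (SE, n = 21; 95% interval -0.24 to 0.02). It did not pass (limma p = 0.0957, adjusted p = 0.365).

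CLOCK, the activator that binds E-box elements with BMAL1, ranged from 3.72 through 4.07 to 4.70 after hyperthermia and from 3.41 through 3.91 to 4.30 before it. The ranges overlapped. CLOCK was higher in 14 of 21 tumours, with a mean change of 0.16 ± 0.06 (SE, n = 21; 95% interval 0.05 to 0.28; fold 1.12). It did not pass over all tumours (limma p = 0.00832, adjusted p = 0.0921). Without tumour 8, whose change of -0.36 was the lowest, the mean change was 0.19 and did pass (limma adjusted p = 0.0376), and it was the 1 clock gene that passed when any single tumour was left out. The other CLOCK probe set gave -0.001 ± 0.06 (SE; limma adjusted p = 0.997), and its changes over tumours correlated with those of the chosen one at r = 0.39, given as a description.

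The other probe sets of the period and REV-ERB genes did not all follow the chosen ones. The second PER1 probe set changed by -0.24 ± 0.09 (SE; limma adjusted p = 0.107), and its changes followed the chosen probe set at r = 0.80 over 21 tumours. The third PER1 probe set followed at r = 0.75 with a mean change of -0.03, and the remaining 3 had changes between -0.08 and -0.002. For NR1D2, the second probe set changed by 0.16 ± 0.11 (SE; limma adjusted p = 0.464) and followed the chosen one at r = 0.85, while the 2 probe sets with the lowest means gave r = -0.51 and r = 0.29. CRY1, CRY2 and TEF had 1 probe set each. These correlations are descriptions over 21 tumours on shared arrays. The chosen probe sets of PER1 and CRY1 lay above the median mean of all probe sets (5.28) on 42 of 42 arrays and that of CRY2 on 32, whereas those of PER2 and CLOCK did so on 1 and 0 arrays. The chosen probe sets of NR1D2, PER3 and TEF did so on 14, 12 and 6 arrays.

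Although the means stayed near 0, the genes differed in how far single tumours moved. The SD of the change was 0.56 for PER1, 0.54 for NR1D2 and 0.49 for CRY1. These stood at the 92.1, 90.8 and 88.1 percentiles among the 15115 genes, whose median SD was 0.28. PER3 followed with 0.40, then PER2 with 0.31 and TEF with 0.29. CLOCK and CRY2, with 0.25 and 0.24, lay below the median of all genes. These percentiles are a description with no test. The probe sets differ in level, as given above, and the part of level in this order was not tested.

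The genes did not move together within most tumours. In tumour 6, 7 of the 8 genes were higher after hyperthermia, among them PER1 by 0.71, PER2 by 0.50, PER3 by 0.94, NR1D2 by 0.52 and TEF by 0.49, while CRY1 changed by -0.40. In tumour 13, 7 of the 8 were lower, with PER1 at -1.67 and PER2 at -0.38. In tumour 18 the 3 period genes changed by -0.79, -0.81 and -0.50 in the order PER1, PER2 and PER3, and ARNTL by 1.08. The largest change of any clock gene in a tumour belonged to PER1 in tumours 8, 13, 14 and 17, and to NR1D2 in 7 others. The heat map of changes by tumour shows these patterns.

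**Figure D2:**
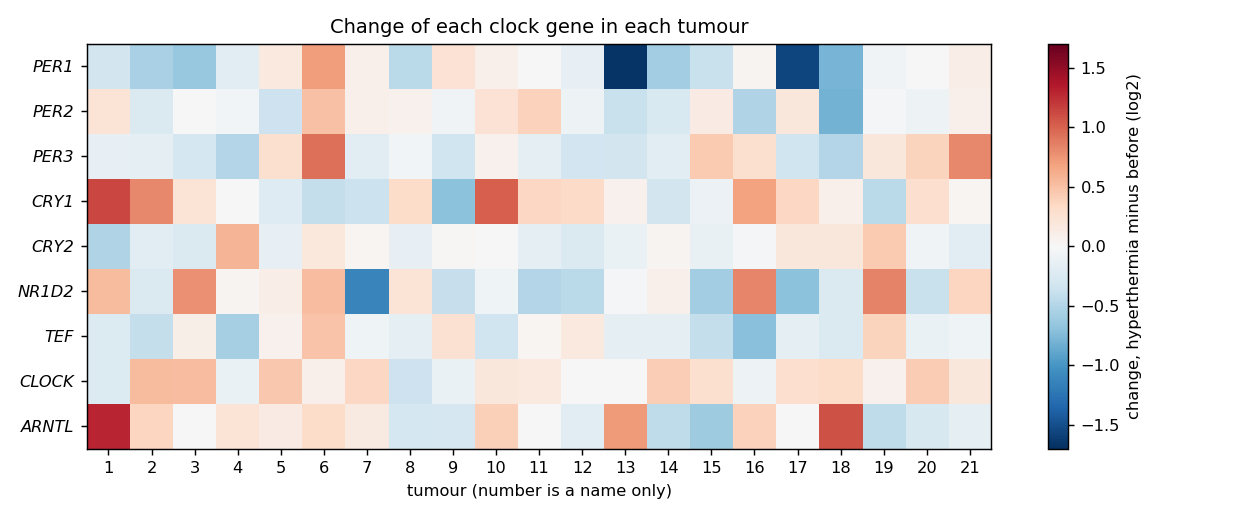
Change of each clock gene and of ARNTL (rows) in each of 21 tumours (columns), as log2 level after hyperthermia minus log2 level before it; red is higher and blue is lower after hyperthermia. PER1 is lowest in tumours 13 and 17, and tumour 6 is red for PER1, PER2, PER3, NR1D2 and TEF.

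Whether the clock genes moved with each other over tumours was tested for 36 pairs, formed by the 8 genes and ARNTL, which encodes BMAL1. No pair passed by Pearson's r or by Spearman's rho (permutation tests with 100000 resamples, adjusted over the 36 pairs), and 4 pairs had an unadjusted p under 0.05 by Pearson's r. PER1 and PER3 had r = 0.56 and rho = 0.53 (permutation p = 0.00903 and p = 0.0151, adjusted p = 0.163 and 0.272). Without tumours 13 and 17, the farthest from the median change of PER1, r was 0.59. That value keeps tumour 6, which had the highest change of both genes (0.71 and 0.94). The r of PER1 and PER3 was 0.45 in the spiked batch and 0.65 in the unspiked batch. CRY1 and TEF had r = -0.57 and rho = -0.53 (permutation p = 0.00739 and p = 0.0147, adjusted p = 0.163 and 0.272). Without tumours 1 and 10 r was -0.58, and it was -0.77 in the spiked batch and -0.50 in the unspiked batch.

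CRY1 and ARNTL had r = 0.50 and rho = 0.46 (permutation p = 0.0200 and p = 0.0374, adjusted p = 0.240 and 0.336). That value rested on few tumours, since r was 0.28 without tumours 1 and 10; it was 0.37 in the spiked batch and 0.61 in the unspiked batch. CRY1 and CRY2 had r = -0.48 and rho = -0.46 (permutation p = 0.0269 and p = 0.0354, adjusted p = 0.242 and 0.336). Without tumours 1 and 10 r was -0.39, and it was -0.44 in the spiked batch and -0.51 in the unspiked batch. The sign was the same in both batches for 17 of the 36 pairs.

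**Figure D3:**
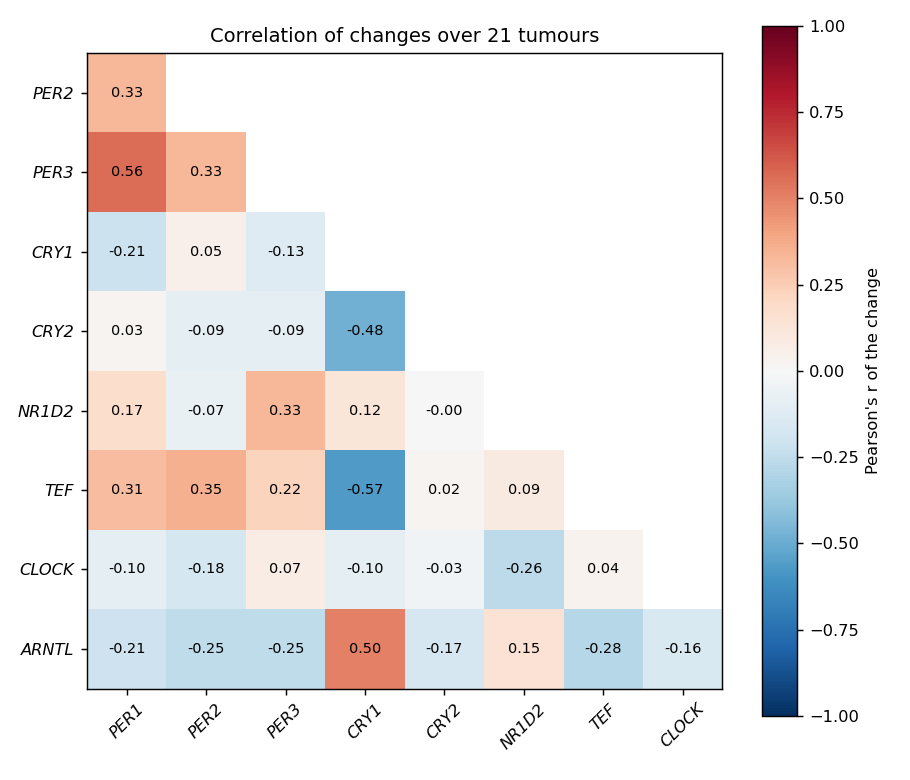
Pearson's r of the changes of each pair of clock genes over 21 tumours, from blue (-1) to red (1), with r printed in each cell. The values run from -0.57 for CRY1 and TEF to 0.56 for PER1 and PER3, and none of the 36 pairs passed after adjustment.

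Levels before treatment showed no passing pair either, with 8 of 36 pairs at an unadjusted p under 0.05. CLOCK and ARNTL had the strongest relation of levels before treatment, with r = -0.60 and rho = -0.58 (permutation p = 0.00416 and p = 0.00670, adjusted p = 0.0896 and 0.199). Without tumours 1 and 14 r was -0.42, and it was -0.31 in the spiked batch and -0.69 in the unspiked batch. PER2 and CRY1 had r = -0.59 and rho = -0.52 (permutation p = 0.00498 and p = 0.0167, adjusted p = 0.0896 and 0.201). Without tumours 14 and 17 r was -0.43, and it was -0.26 in the spiked batch and -0.69 in the unspiked batch.

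Tumours kept their order best for NR1D2. Its level after hyperthermia followed its level before with r = 0.82 (permutation p = 1e-05, the smallest that 100000 resamples can give; adjusted p = 8e-05 over the 8 genes) and rho = 0.79 (permutation p = 5e-05, adjusted p = 0.0004). It was 0.71 without tumours 1 and 2, 0.76 in the spiked batch and 0.84 in the unspiked batch. Its r stood at the 83.9 percentile of all genes, whose median r was 0.62. The r of PER2 stood at the 51.9 percentile, that of PER3 at 39.0 and that of PER1 at 38.7. CRY1 stood at 32.9, CRY2 at 27.1, TEF at 21.7 and CLOCK at 20.7. PER2 had r = 0.63 and rho = 0.57 (permutation p = 0.00218 and p = 0.00808, adjusted p = 0.00872 and 0.0323), with r = 0.40 without tumours 14 and 17, 0.40 in the spiked batch and 0.73 in the unspiked batch. PER3 had r = 0.54 and rho = 0.48 (permutation p = 0.0122 and p = 0.0307, adjusted p = 0.0326 and 0.0615), with r = 0.56 without tumours 15 and 18, 0.38 in the spiked batch and 0.59 in the unspiked batch.

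The relation for PER1 rested on few tumours. Its r was 0.54 and its rho 0.22 (permutation p = 0.0269 and p = 0.333, adjusted p = 0.0430 and 0.333), and r was 0.07 without tumours 4 and 6, 0.19 in the spiked batch and 0.52 in the unspiked batch. CRY1 had r = 0.49 and rho = 0.45 (permutation p = 0.0236 and p = 0.0431, adjusted p = 0.0430 and 0.0689), but r was 0.21 without tumours 2 and 17, -0.07 in the spiked batch and 0.63 in the unspiked batch. CRY2 passed by rho but not by r, with r = 0.44 and rho = 0.54 (permutation p = 0.0468 and p = 0.0128, adjusted p = 0.0625 and 0.0342), and r was 0.28 without tumours 14 and 17, 0.62 in the spiked batch and 0.36 in the unspiked batch. TEF did not pass, with r = 0.38 and rho = 0.27 (permutation p = 0.0874 and p = 0.240, adjusted p = 0.0960 and 0.274), and r was -0.04 without tumours 4 and 17, 0.25 where spiked and 0.44 where unspiked. CLOCK did not pass either, with r = 0.37 and rho = 0.40 (permutation p = 0.0960 and p = 0.0773, adjusted p = 0.0960 and 0.103), and r was 0.33 without tumours 1 and 14, 0.13 where spiked and 0.46 where unspiked.

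Because PER1 is known as a direct glucocorticoid target, its changes were set against those of 5 other known targets, a family of 5 relations added after the changes of PER1 were known. TSC22D3 (GILZ), a glucocorticoid-induced leucine zipper protein, followed PER1 over tumours with r = 0.82 and rho = 0.69 (permutation p = 3e-05 and p = 0.00091, adjusted p = 0.00015 and 0.00455). TSC22D3 was itself lower in 15 of 21 tumours, with a mean change of -0.20 ± 0.15 (SE; limma adjusted p = 0.495). It changed by -1.82 in tumour 13, by -1.32 in tumour 17 and by 1.76 in tumour 6. These are the tumours with the lowest and the highest PER1 changes. Without tumours 13 and 17 r was 0.68, but that value keeps tumour 6, which had the highest change of both genes.

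The relation differed in size between the batches, which was not tested: r was 0.91 in the unspiked batch (n = 12; permutation p = 7e-05) and 0.37 in the spiked batch (n = 9; permutation p = 0.334), where the changes of PER1 spanned -0.79 to 0.25. Over the 12 combinations of the 6 PER1 and 2 TSC22D3 probe sets, r ran from -0.32 to 0.82. With the second PER1 probe set r was 0.64, with the second TSC22D3 probe set it was 0.62, and with both it was 0.50. The third PER1 probe set gave 0.55 and 0.41, and the 3 PER1 probe sets of lowest mean gave -0.32 to 0.34. Before treatment the levels of the 2 genes had r = 0.34 and rho = 0.38 (permutation p = 0.127 and p = 0.0907, adjusted p = 0.159 and 0.138), and after it r = 0.65 and rho = 0.43 (permutation p = 0.00221 and p = 0.0545, adjusted p = 0.00368 and 0.0681). The scatter of PER1 and TSC22D3 changes shows the 3 tumours at its ends.

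**Figure D4:**
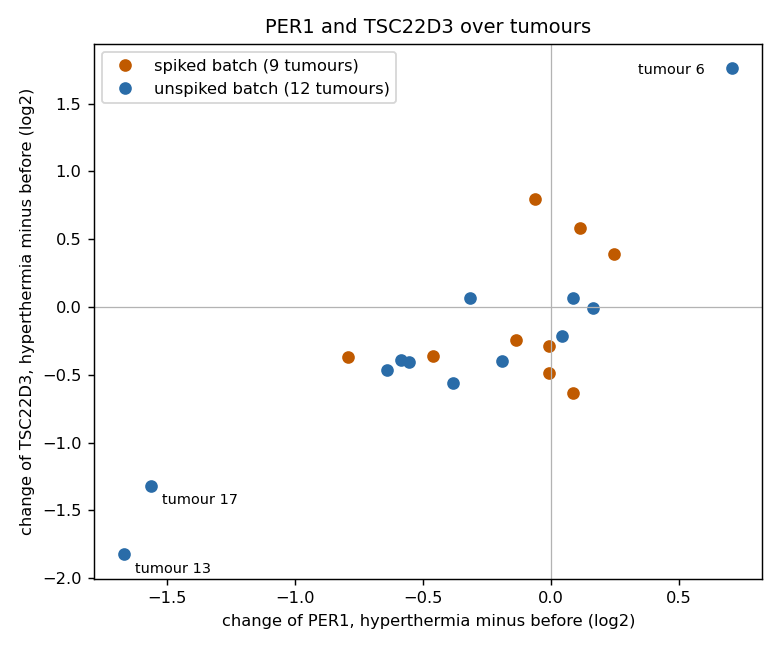
Change of TSC22D3 against change of PER1, both as log2 level after hyperthermia minus log2 level before it. Each point is 1 tumour, coloured by spike-in batch. Tumours 13 and 17 lie at the lower left and tumour 6 at the upper right, all from the unspiked batch.

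ZBTB16, a zinc finger factor, followed PER1 with r = 0.67 and rho = 0.65 (permutation p = 0.00177 and p = 0.00206, adjusted p = 0.00442 and 0.00515), and r was 0.64 without tumours 13 and 17, 0.22 in the spiked batch and 0.74 in the unspiked batch. FKBP5, a co-chaperone of the glucocorticoid receptor, had r = 0.52 and rho = 0.44 (permutation p = 0.0172 and p = 0.0459, adjusted p = 0.0214 and 0.0765), with r = 0.54 without tumours 13 and 17, 0.09 in the spiked batch and 0.72 in the unspiked batch. DUSP1, a phosphatase of MAP kinases, had r = 0.53 and rho = 0.36 (permutation p = 0.0150 and p = 0.113, adjusted p = 0.0214 and 0.141), but its r was 0.12 without tumours 13 and 17, 0.11 in the spiked batch and 0.73 in the unspiked batch. SGK1, a kinase, had r = 0.11 and rho = 0.09 (permutation p = 0.633 and p = 0.692, adjusted p = 0.633 and 0.692), with r = -0.27 without tumours 13 and 17, -0.09 in the spiked batch and 0.14 in the unspiked batch. By r with the change of PER1 among all genes, TSC22D3 ranked 1, ZBTB16 33, DUSP1 329, FKBP5 355 and SGK1 5743. Many genes outside these 5 therefore followed PER1 as closely as FKBP5 and DUSP1 did. The adjusted p-values cover the 5 relations only. The values without tumours 13 and 17 keep tumour 6, which had the highest change of PER1, of ZBTB16 (2.47) and of FKBP5 (1.83). SGK1 rose by 0.83 ± 0.24 (SE; limma adjusted p = 0.0359, higher in 14 of 21 tumours), and it no longer passed on leaving out tumour 1, 2, 3, 7, 10, 12, 16, 18 or 21 (highest limma adjusted p = 0.0695). The other SGK1 probe sets changed by 0.41 and 0.63 and did not pass (limma adjusted p = 0.0619 and 0.0851). Of the 5 glucocorticoid targets only SGK1, by its chosen probe set, passed the test of change.

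The genes most like a clock gene in their changes were searched among 9157 genes outside the clock lists whose mean level lay above that of the median probe set, by Pearson's r over 21 tumours, as a description with no test. For PER1 these were TSC22D3 (0.82), PDPK1 (0.80) and UCKL1 (0.79). For NR1D2 they were TOR1AIP1 (0.85), MTRR (0.81) and SC5D (0.77). For TEF they were MXD4 (0.74), DNM2 (0.69) and TEDC2 (0.69), and for CLOCK they were HIPK2 (0.77), ZNF507 (0.69) and BANP (0.68). None of these 12 genes passed the test of change.

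The rest of the clock pathway was read from 34 further genes in 4 lists, of which 27 had a probe set of their own. Of the 27, 4 rose and none fell, which is set beside 4.02% of all genes higher and 3.13% lower. The median change of the 27 was 0.03, beside 0.01 for all genes, and 10 of the 27 had an unadjusted p under 0.05, against 21.7% of all genes.

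Among activators and ROR receptors, 1 of 4 measured genes rose. ARNTL2 (BMAL2), a relative of BMAL1 that can also pair with CLOCK, ranged from 3.81 through 5.23 to 7.15 after hyperthermia and from 3.53 through 4.25 to 7.27 before it. ARNTL2 had no other probe set as a check, and the chosen one lay above the median mean of all probe sets on 14 of 42 arrays. Its ranges overlapped, but 17 of 21 tumours were higher. It rose by 0.68 ± 0.16 (SE, n = 21; 95% interval 0.34 to 1.02; limma adjusted p = 0.0143) and passed in 21 of 21 repeats that each omitted a single tumour. ARNTL changed by 0.11 ± 0.10 (SE; limma adjusted p = 0.599), with 1.30 in tumour 1 and 1.08 in tumour 18, and NPAS2, a close relative of CLOCK, by 0.03 ± 0.05 (SE; limma adjusted p = 0.777). RORB, a receptor that activates ARNTL, changed by 0.01 ± 0.05 (SE; limma adjusted p = 0.954).

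Among the other repressors and bZIP factors, none of 4 measured genes passed, although 3 had an unadjusted limma p under 0.05. BHLHE40 (DEC1), a repressor that binds E-boxes, was higher in 17 of 21 tumours, with a change of 0.59 ± 0.18 (SE; limma adjusted p = 0.0569). It passed on leaving out tumour 5, 6, 12 or 15 (lowest limma adjusted p = 0.0320). The other BHLHE40 probe sets changed by 0.27 and 0.33 (limma adjusted p = 0.319 and 0.153). NFIL3, which binds the D-box as a repressor, was higher in 14 of 21, with a change of 0.61 ± 0.21 (SE; limma adjusted p = 0.0915), and passed on leaving out tumour 13 or 15 (lowest limma adjusted p = 0.0354). BHLHE41 (DEC2), a relative of BHLHE40, was lower in 15 of 21, with a change of -0.31 ± 0.14 (SE; limma adjusted p = 0.211). Without tumours 13 and 15 BHLHE40, NFIL3 and BHLHE41 all passed, with changes of 0.66, 0.79 and -0.43 (limma adjusted p = 0.0335, 0.0140 and 0.0342), and with probe sets filtered at the median level BHLHE40 did (limma adjusted p = 0.0377). Tumour 15 had the lowest NFIL3 change (-1.23) and the highest BHLHE41 change (1.17), both against the mean. Tumour 13 also moved against the mean in both genes (-0.93 and 0.49), while BHLHE40 changed by 0.41 in tumour 13 and by -0.55 in tumour 15. No rule for leaving out this pair is given here, so passing without it is no support for a change. RNA quality did not pick tumour 15, since its 3′ minus 5′ contrast changed by 0.14. HLF, the third PAR bZIP factor, changed by 0.08 ± 0.06 (SE; limma adjusted p = 0.475).

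Among kinases, ubiquitin ligases and other modifiers, 2 of 12 measured genes rose. GSK3B, a kinase that phosphorylates several clock proteins, ranged from 6.13 through 7.58 to 8.37 after hyperthermia and from 5.92 through 7.36 to 8.05 before it. The ranges overlapped and 17 of 21 tumours were higher. It rose by 0.25 ± 0.06 (SE, n = 21; 95% interval 0.12 to 0.38; limma adjusted p = 0.0211) and passed in 21 of 21 repeats that each omitted a single tumour. With the tumour as a random block it did not pass (limma adjusted p = 0.101), whereas NFIL3 then did (0.61, limma adjusted p = 0.0425).

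PRKAA1, a catalytic subunit of AMP-activated kinase, which marks cryptochromes for degradation, ranged from 6.76 through 7.17 to 8.20 after hyperthermia and from 6.03 through 7.02 to 8.003 before it. The ranges overlapped. It rose by 0.37 ± 0.11 (SE, n = 21; limma adjusted p = 0.0369, higher in 15 of 21 tumours), and the call was lost on leaving out any one of tumours 1, 2, 3, 10, 12, 13, 16, 20 or 21 (highest limma adjusted p = 0.0689) and by the Wilcoxon signed-rank test (adjusted p = 0.0647). The other PRKAA1 probe sets changed by 0.12 and 0.15 and did not pass (limma adjusted p = 0.735 and 0.0925). CSNK1D, a kinase of period proteins, changed by 0.16 ± 0.05 (SE; limma adjusted p = 0.0693; 0.0396 without tumour 17) and CSNK2A1, a catalytic subunit of casein kinase 2, by -0.14 ± 0.06 (SE; limma adjusted p = 0.218). The other CSNK2A1 probe sets had the opposite sign, with changes of 0.07 and 0.03 (limma adjusted p = 0.392 and 0.896).

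Among output genes, 1 of 7 measured genes rose. WEE1, a kinase that holds back entry into mitosis and is an E-box target in mouse liver, ranged from 4.70 through 5.56 to 7.50 after hyperthermia and from 3.95 through 5.23 to 6.75 before it. The ranges overlapped. It rose by 0.64 ± 0.18 (SE, n = 21; 95% interval 0.27 to 1.01; limma adjusted p = 0.0320, higher in 15 of 21 tumours), with 2.76 in tumour 21 and 2.41 in tumour 1. The call was lost on leaving out any one of tumours 1, 2, 3, 10, 12, 16 or 21 (highest limma adjusted p = 0.0611) and by the Wilcoxon signed-rank test (adjusted p = 0.0647). KLF10, a zinc finger repressor, changed by -0.38 ± 0.13 (SE; limma adjusted p = 0.102, lower in 16 of 21 tumours; 0.0266 without tumour 3, 0.0494 without tumour 13, 0.0474 without tumours 13 and 15, and 0.0283 with array weights).

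**Figure D5:**
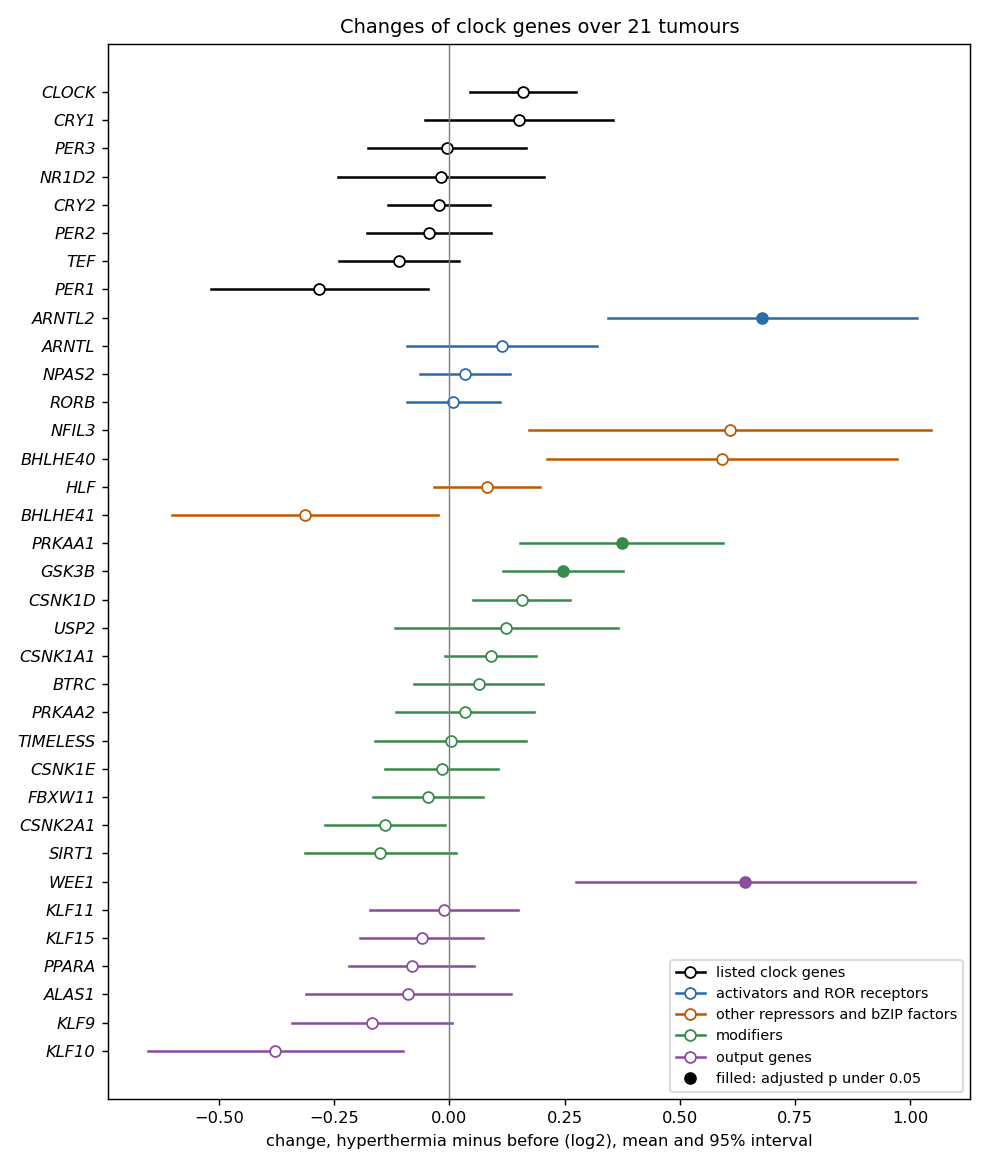
Mean change with its 95% interval (log2 level after hyperthermia minus log2 level before it) over 21 tumours for the 8 listed clock genes (black) and 27 other clock genes (coloured by list); filled points passed at an adjusted p under 0.05. The filled points are ARNTL2, PRKAA1, GSK3B and WEE1, all to the right of 0.

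None of the 8 clock genes passed within either spike-in batch, a split inferred from the poly-A controls. In the unspiked batch alone no probe set of any gene passed, so a missing call there says nothing about a single gene. The counts over all probe sets in each batch are given in the last section. PER1 changed by -0.11 in the spiked batch and -0.41 in the unspiked batch (limma adjusted p = 0.579 and 0.375), and CLOCK by 0.10 and 0.21 (limma adjusted p = 0.536 and 0.324). The difference of the change between batches, tested by an interaction term in limma, passed for none of the 8 genes (adjusted p between 0.814 and 0.992) and for 0.00662% of all genes. Of the other clock genes that rose over all tumours, none passed in a batch alone: ARNTL2 changed by 0.57 where spiked and 0.76 where unspiked (limma adjusted p = 0.114 and 0.238), GSK3B by 0.38 and 0.14 (0.0708 and 0.396), PRKAA1 by 0.30 and 0.43 (0.117 and 0.322) and WEE1 by 0.85 and 0.49 (0.0523 and 0.459). KLF10 was lower in 9 of 9 tumours of the spiked batch, with a change of -0.80 (limma adjusted p = 0.0136), against -0.06 in the unspiked batch, and that difference did not pass (limma p = 0.00392, adjusted p = 0.615).

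The 3′ minus 5′ contrast, taken from control transcripts for actin and GAPDH, had a mean change of 0.06 ± 0.27 (SD, n = 21) and was higher after hyperthermia in 8 of 9 spiked and 4 of 12 unspiked tumours. With this contrast as a covariate, WEE1 no longer passed (0.61, limma adjusted p = 0.0544). Of the markers of other cells, CD3E of T cells was lower after hyperthermia by 0.23 on average and passed (limma change -0.23, adjusted p = 0.0420), as did SPARC among the mesenchymal markers (-0.28, adjusted p = 0.0476). The 4 leukocyte markers did not move alike, and their mean changed by 0.03. CD14 changed by 0.29, CD68 by 0.19 and PTPRC by -0.12, none of them passing (limma adjusted p = 0.0739, 0.267 and 0.476). Over repeats that each omitted a tumour, CD3E lost its call in 13 of 21 and SPARC in 14 of 21 (highest limma adjusted p = 0.0808 and 0.0894). In the spiked batch CD3E changed by -0.24 and SPARC by -0.47, and in the unspiked batch by -0.22 and -0.13 (limma adjusted p = 0.108, 0.0416, 0.413 and 0.669). The mean of 4 leukocyte markers ran from 6.34 to 8.16 after hyperthermia and from 6.25 to 8.58 before it, and that of 3 endothelial markers from 6.43 to 8.91 and from 6.43 to 9.53. The mean of 3 adipocyte markers ran from 5.60 to 7.92 after hyperthermia and from 5.14 to 7.99 before it, that of 3 muscle markers from 4.55 to 6.26 and from 4.43 to 5.22, and that of EPCAM and DSP, 2 epithelial markers, from 3.25 to 7.99 and from 3.32 to 7.38. Tumour 15 was the highest for both epithelial markers in both groups. None of these 8 markers of fat, muscle and epithelium, nor the 3 endothelial ones, passed. KRT5, KRT14, CKM and HBB had no probe set of their own. The part of cell composition and RNA quality in the clock gene values was not tested.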

How the data were processed

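RNA of 21 canine sarcomas was measured before and after the first hyperthermia treatment on Affymetrix arrays. Per the labels' protocols, samples were kept in RNAlater and RNA was purified with Qiagen columns and labelled with biotin. The deposited values are log2 levels, which the authors made with RMA in Affymetrix Expression Console, per the submitters' processing notes; versions are not given in the sources used here. RMA scales arrays alike, so changes are relative to the bulk of probe sets, and it was not known how far low levels are background. Array numbers limit the precision.

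Of 43035 rows, 111 controls were left out. Of the other 42924 probe sets, 29254 had 1 symbol, 439 had several and 13231 had none. The code that starts each title paired the arrays; with group means removed, each of 21 tumours correlated best with its own partner (lowest r = 0.44, median 0.68). limma 3.58.1 in R 4.3.3 fitted treatment with tumour as a block (eBayes, Benjamini-Hochberg at 0.05, two-sided). Permutation tests were two-sided and used 100000 resamples (SciPy 1.17.1, NumPy 2.4.6). The fit was tested on simulated data.

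The members and lists were chosen with earlier results of these data known. Named are the 10 members, all other clock genes that pass, and up to 4 per list that do not, by smallest p. Since NR1D1 and DBP were not measured, 36 pairs in place of the planned 55 were formed, and NR1D2 and TEF took their place in the search for like genes. The batches were inferred from the spike-in controls, with a border at 5.75. No sequence is shown.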

Additional observations from a re-analysis of the deposited data

How the results depend on the processing

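Among the 8 clock genes, 0 passed in all 13 other settings tried over all probe sets (the filter at the median level left PER1, CRY1 and CRY2 to test), and 0 or 1 when 1 tumour was left out (1, CLOCK, without tumour 8). PER1, CRY1 and TEF kept their sign in every setting run. With no replicate block, which ignores the pairing, 30 probe sets passed, against 2558 with it, and 0 of the other clock genes, against 4; none of the 8 clock genes passed either way. Other counts of passing probe sets were 1293 in the spiked batch alone, 0 in the unspiked batch alone (4989 at an unadjusted limma p under 0.05) and 3861 without tumours 13 and 15; with 1 tumour left out they ran from 1816 to 3171. The passing other clock genes numbered 1 in the spiked batch, 0 in the unspiked batch (4 at an unadjusted p under 0.05), 2 by the Wilcoxon signed-rank test, 8 without tumours 13 and 15, and 2 to 6 with 1 tumour left out (2 without tumour 1, 2, 10, 16 or 21, and 6 without tumour 15). Leaving out tumours 13 and 15 is not a filter on RNA quality, since the contrast of tumour 15 changed by 0.14. No rule for that choice is given here, and its counts are no support for a change. The r of PER1 and TSC22D3 was 0.37 in the spiked batch and 0.34 for levels before. Fewer tumours enter the batch fits; otherwise the cause was not tested.

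Some changes that did not pass turned their sign, among them those of CLOCK (0.16) and ARNTL (0.11). Array weights gave CRY2 0.0027 and a repeat of quantile normalisation gave PER3 0.00063. NR1D2 was 0.018 with the 3′ to 5′ covariate, 0.019 in the unspiked batch, 0.013 without tumours 13 and 15 and 0.0081 without tumours 11 and 13, of changed contrast, where PER3 was 0.020. The spiked batch gave PER3 0.0090 and ARNTL -0.017, and the unspiked batch gave NPAS2 -0.046 and RORB -0.0052. Second probe sets gave PER2 0.011, PER3 0.056, NR1D2 0.16 and CLOCK -0.00074. The NR1D2 probe sets of rank 3 and 5 by mean gave 0.045 and 0.068, and means over all probe sets gave PER3 0.026 and NR1D2 0.048. With 1 tumour left out, PER3 ran from -0.052 to 0.020, CRY2 from -0.052 to 0.0022, NR1D2 from -0.061 to 0.037 and RORB from -0.011 to 0.031. The low levels of PER2, CLOCK and TEF, and on most arrays those of PER3, NR1D2 and ARNTL2, limit what these arrays can show of them.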
